A study of Mus musculus with 4 samples.

Results

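The type I interferon antiviral effector genes are the interferon-stimulated genes whose proteins act on viruses, on infected cells or on the interferon signal itself. A list of 38 such genes was taken from the 53647 genes in the count tables of mouse primary myotubes, matched by Ensembl identifier to the GENCODE M39 annotation, and all 38 were found. The list is given by gene name and sets no threshold on a measured value. The bulk RNA sequencing compared control myotubes with myotubes given EDA-A2, a ligand of the tumour necrosis factor family that binds the receptor EDA2R, and the study asked how this receptor changes gene expression in muscle cells. Both groups were wild type (WT), grown from myoblasts of the limb muscles of pups 2 to 3 days old and differentiated in horse serum, and both were harvested 72 h after differentiation began. The EDA-A2 group received 250 ng/mL for 24 h, and the controls carry no further treatment in the labels. Each group holds 2 libraries, and nothing in the sources says whether these came from separate pups or cultures, so the p-values measure only the spread between these libraries.

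Type I interferons bind a receptor of the subunits IFNAR1 and IFNAR2, and the kinases JAK1 and TYK2 then activate transcription factors, among them STAT2. STAT2 acts with IRF9 at the interferon-stimulated response element (ISRE), a short motif near the start sites of antiviral genes. Among the products, ISG15 is a ubiquitin-like modifier, IFIT proteins bind viral RNA, IFITM proteins block viral entry, OAS enzymes sense double-stranded RNA, MX proteins are antiviral GTPases, and muscle fibres are known to express many of them in inflammatory myopathies.

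The ISRE was searched in the genome around the start site of each member, since the motif is what the family is known to share and the rule did not use it. The letters were GAAANNGAAA on both strands, in a window from 250 bases before to 50 after the start of the canonical transcript. It was present in 16 of 38 members (42.1%) and in 829 of 21613 protein-coding genes (3.84%). The windows below hold a match and belong to members that were called after EDA-A2 and to members that were not. Coordinates and sequences are from GRCm39, and the first 6 are printed on the strand of the gene. Capitals mark matches on either strand, and a lone capital at the left edge is the last base of a further match.
Ifit1, chr19:34618179-34618238, plus strand: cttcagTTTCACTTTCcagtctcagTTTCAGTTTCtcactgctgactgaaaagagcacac
Rsad2, chr12:26506537-26506596, minus strand: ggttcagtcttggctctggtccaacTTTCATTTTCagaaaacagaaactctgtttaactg
Ddx60, chr8:62381077-62381136, plus strand: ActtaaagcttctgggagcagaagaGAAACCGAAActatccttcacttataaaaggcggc
Isg15, chr4:156285307-156285366, minus strand: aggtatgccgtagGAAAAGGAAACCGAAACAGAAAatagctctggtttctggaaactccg
Usp18, chr6:121222781-121222840, plus strand: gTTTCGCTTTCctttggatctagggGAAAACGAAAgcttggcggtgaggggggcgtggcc
Ifit3b, chr19:34585178-34585237, plus strand: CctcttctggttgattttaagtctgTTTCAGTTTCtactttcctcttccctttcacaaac
Parp9 and Dtx3l, chr16:35759332-35759361, printed on the plus strand: agaggcaaagTTTCAGTTTCgattccccag
Ifit1, Rsad2 and Ddx60 were higher after EDA-A2, while Isg15, Usp18 and Ifit3b were not called and were at least 2-fold apart between the controls. The match between Parp9 and Dtx3l lies outside the window searched, as given with those genes below. The window of Ifit3 at chr19:34560782-34560841 holds the same 60 bases as that of Ifit3b.

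Counts on genes were nearly equal between libraries, from 29444155 to 29746863 read pairs, and TMM scaling factors lay between 0.972 and 1.026. A count of 0 allows up to 3 counts, or 0.101 to 0.102 CPM, which covers counting error only. For normalized counts, each library was brought to the mean of the TMM-adjusted library sizes, and errors are SD over the 2 libraries of a group. Level per length is the normalized count as CPM, divided by the length of the exons in kb, and serves to compare genes. The genes entered edgeR's quasi-likelihood test if they passed a filter on low counts, which 15173 did. Among those, 371 were higher (2.45%) and 323 lower (2.13%) at a Benjamini-Hochberg adjusted p under 0.05. The treatment was visible in Nfkb2, an NF-κB subunit, at 1008 and 1005 normalized counts in the controls and 3660.0 and 3808 after EDA-A2, and in the receptor gene Eda2r, at 7024 and 7685 in the controls and 8732 and 9951 after EDA-A2 (log2 fold change 0.34, SE 0.08, adjusted p = 0.0178, edgeR). Of 8 myotube markers all were tested, and their summed normalized counts were 631515 and 596469 in the controls against 458398 and 463931 after EDA-A2. The 2 with the highest counts, Myh3 and Acta1, were called lower, with log2 fold changes of -0.57 and -0.52. The others were not called and ranged from -0.36 in Ckm to -0.02 in Des and -0.01 in Mymk. From such a sum in bulk RNA, fewer cells of a type, less RNA per cell and a change in some of the marker genes cannot be told apart.

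Of the 38 members, 32 passed the filter, and 7 of them (21.9%) were higher after EDA-A2: Parp9, Dtx3l, Parp14, Rsad2, Samd9l, Ddx60 and Ifit1. The share over all genes tested was 2.45%. None was lower by edgeR's test, 1 (Xaf1) was lower at an unadjusted p under 0.05 (8.03% of all genes tested), and DESeq2 also called 0 lower. Isg15, Usp18, Mx2, Oasl2, Ifi44 and Bst2 were not among those called, and they belong to 10 members (31.2%; all genes tested 17.3%) in which both EDA-A2 libraries lay between the controls. The median log2 fold change of the tested members was 0.16, against -0.00 over all genes tested, and 19 of 32 were positive.

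With all 4 libraries, the largest fitted log2 fold changes were those of Parp9, Dtx3l and Parp14, and without control replicate 2 that of Rsad2 (1.14) was above that of Parp14 (0.80). PARP9 and DTX3L form a complex of an ADP-ribosyltransferase family protein and an E3 ubiquitin ligase that strengthens interferon signalling, and PARP14 is a mono-ADP-ribosyltransferase. Parp9 had 166 and 143 normalized counts in control replicates 1 and 2, and 371 and 374 in EDA-A2 replicates 1 and 2. Every treated library thus lay above every control, with means of 155 ± 16.0 and 372 ± 2.78. The log2 fold change was 1.27 (SE 0.13, adjusted p = 4.33e-05, edgeR's quasi-likelihood test). Dtx3l showed the same order, with 222 and 184 normalized counts in the controls and 438 and 454 after EDA-A2. Its means were 203 ± 26.9 and 446 ± 11.2, and its log2 fold change was 1.14 (SE 0.13, adjusted p = 7.13e-05, edgeR). Parp14 had 102 and 60.5 normalized counts in the controls, which differed from each other by 0.75 on the log2 scale, and 184 and 172 after EDA-A2. The groups did not overlap, with means of 81.3 ± 29.3 and 178 ± 8.69 and a log2 fold change of 1.13 (SE 0.21, adjusted p = 0.00569, edgeR).

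These 3 genes are neighbours on chromosome 16, within 139750 bases (GRCm39, chr16:35653231-35792980). Parp14 spans chr16:35653231-35692003 on the minus strand, Dtx3l spans chr16:35746881-35759521 on the minus strand, and Parp9 spans chr16:35758840-35792980 on the plus strand. Parp9 and Dtx3l point away from each other and their first parts overlap by 682 bases. Within 200 kb on either side, 9 other protein-coding genes are annotated, of which 6 were tested and 0 were called by edgeR. The nearest on the Parp14 side, Hspbap1, had a log2 fold change of 0.22 (SE 0.13, adjusted p = 0.491, edgeR), and the nearest on the Parp9 side, Kpna1, had one of -0.02 (SE 0.07, adjusted p = 0.952). The ISRE match printed for Parp9 and Dtx3l begins 502 bases after the start of Parp9 and 170 bases after that of Dtx3l, inside the first exon of both canonical transcripts and in the untranslated part of each. With a window from 1000 bases before to 500 after the start, chosen after the shorter one had been searched, 23 of 38 members (60.5%) and 17.5% of protein-coding genes held a match, and Dtx3l and Parp14 were among the members added. Exons of Parp9 and Dtx3l share 458 bases on opposite strands, and since the strand option of the counting is not given in the sources used here, pairs from this part cannot be assigned with certainty.

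Rsad2 encodes viperin, a radical SAM enzyme that makes a chain-terminating nucleotide, and Cmpk2, which lies 12751 bases away on chromosome 12, encodes a nucleotide kinase that supplies its substrate. Rsad2 (GRCm39, chr12:26492745-26506451, minus strand) had 246 and 281 normalized counts in the controls and 492 and 591 after EDA-A2. Both treated libraries lay well above the controls, with means of 264 ± 24.8 and 541 ± 69.7 and a log2 fold change of 1.04 (SE 0.12, adjusted p = 0.000141, edgeR). Cmpk2 was less abundant, with a level per length of 0.266 against 3.14 for Rsad2, and had 33.0 and 28.2 against 43.1 and 31.4 normalized counts. The groups overlapped, and its log2 fold change was 0.28 (SE 0.31, adjusted p = 0.757, edgeR). The difference in response between the neighbours was not tested.

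The IFIT genes lie in a cluster of 104243 bases on chromosome 19, and 1 of the 4 was called. Ifit1 (GRCm39, chr19:34618271-34632174, plus strand) had 276 and 293 normalized counts in the controls and 402 and 427 after EDA-A2. The groups were separate and tight, with means of 285 ± 12.2 and 414 ± 17.4 and a log2 fold change of 0.54 (SE 0.11, adjusted p = 0.0121, edgeR). Ifit2 had the highest level per length of the cluster, 4.13 against 1.59 for Ifit1, with 751 and 754 normalized counts in the controls and 711 and 672 after EDA-A2 (log2 fold change -0.12, SE 0.09, adjusted p = 0.588, edgeR). Ifit3 and Ifit3b were low and scattered. Ifit3 had 76.2 and 50.4 normalized counts in the controls against 99.0 and 60.9 after EDA-A2 (log2 fold change 0.34, SE 0.28). Ifit3b had 40.2 and 16.1 against 58.8 and 29.5 (log2 fold change 0.65, SE 0.41, adjusted p = 0.518, edgeR). In both genes each group spanned a wide range and the groups overlapped. Of the 100-base windows of their transcripts, 26.6% of those of Ifit3 and 27.2% of those of Ifit3b occur in the other gene, so pairs from these parts may fail to map uniquely and go uncounted. Around the cluster, 6 other protein-coding genes were tested and 0 were called.

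Samd9l encodes a large cytoplasmic protein that restricts poxviruses and lowers translation. It had the highest level per length of the called members, 5.80 (GRCm39, chr6:3372257-3405056, minus strand), with 914 and 678 normalized counts in the controls and 1277 and 1167 after EDA-A2. Although the controls differed by 0.43 on the log2 scale, neither reached the treated libraries (796 ± 167 against 1222 ± 78.2, log2 fold change 0.62, SE 0.11, adjusted p = 0.00477, edgeR). Ddx60, a helicase related to the RNA sensors of the RIG-I family (GRCm39, chr8:62381109-62491278, plus strand), had 158 and 178 normalized counts in the controls and 242 and 252 after EDA-A2. The groups were separate here too, at 168 ± 14.7 and 247 ± 6.71, and the log2 fold change was 0.55 (SE 0.14, adjusted p = 0.0372, edgeR). DESeq2 did not call Ddx60, and called the other 6.

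**Figure D1:**
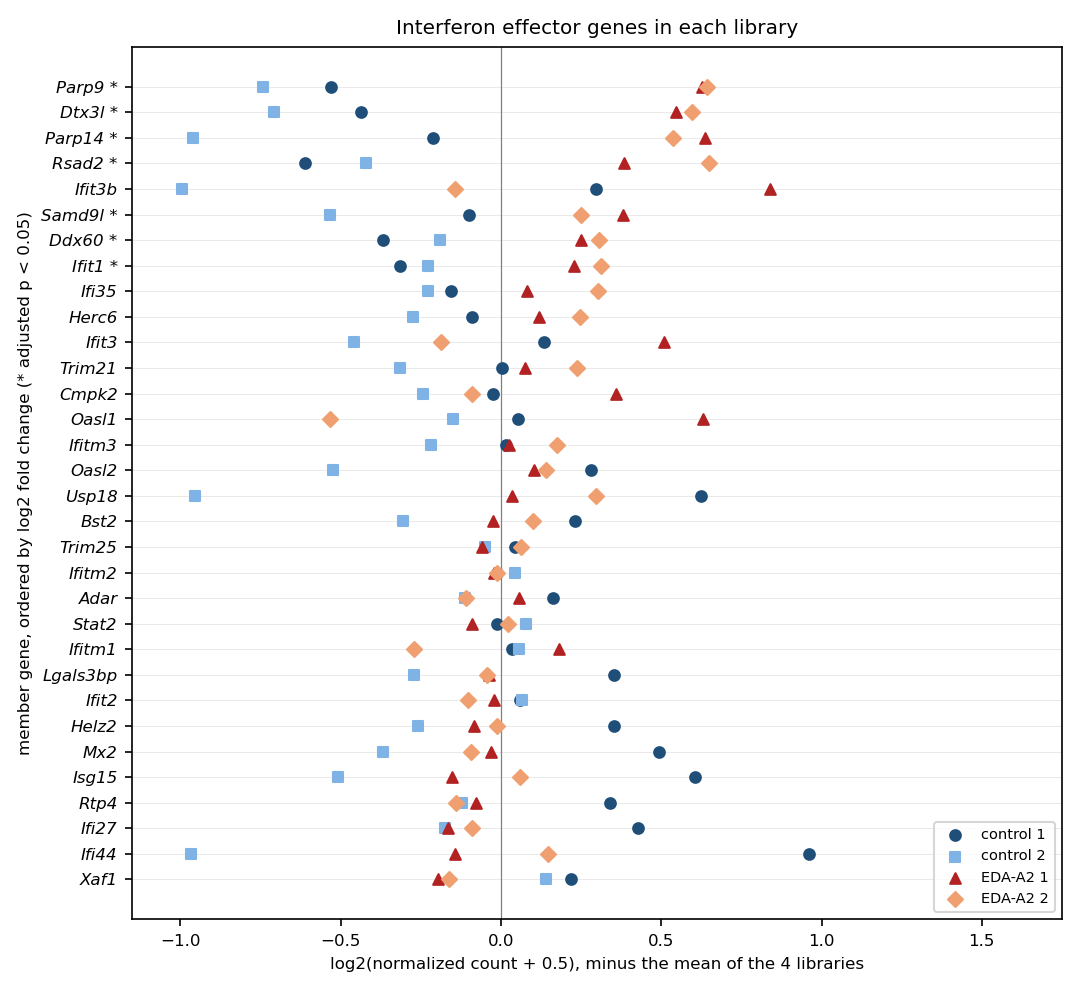
The 32 tested members, ordered by log2 fold change, with 1 point per library; the x axis is log2(normalized count + 0.5) minus the mean of the 4 libraries of the gene, and an asterisk marks the 7 genes at an adjusted p under 0.05. In the called genes the EDA-A2 points lie to the right of both controls, while in genes such as Isg15, Usp18 and Ifi44 the controls form the outer points.

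The 2 control libraries differed from each other in many members, and control replicate 1 was the higher in 25 of 32 (78.1%), against 49.9% of all genes tested. The controls were at least 2-fold apart in 4 members (12.5%; all genes 2.45%), namely Isg15, Usp18, Ifit3b and Ifi44, and at least 1.5-fold apart in 11 (34.4%; all genes 7.83%). The median absolute log2 ratio between the controls was 0.27 in the members and 0.13 in all genes tested. It was 0.12 in the 11699 genes within the members' range of mean level, of which 0.615% were past 2-fold. The EDA-A2 libraries were closer, with a median absolute log2 ratio of 0.12 in the members and 0.10 in all genes. They were at least 1.5-fold apart in 3 members (9.38%; all genes 5.95%) and at least 2-fold apart in 1, Oasl1 (3.12%; all genes 1.69%). These ratios set 1 library against 1 and have no test.

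Ifi44, an interferon-induced protein of the cytoplasm, had the widest gap. It had 201 and 52.4 normalized counts in control replicates 1 and 2, a ratio of 3.80, and 93.1 and 114 after EDA-A2. Both treated libraries sat between the controls, and the log2 fold change was -0.29 with an SE of 0.39 (adjusted p = 0.816, edgeR). Usp18, the protease that removes ISG15 from proteins and restrains the interferon receptor, had 37.1 and 12.1 normalized counts in the controls and 24.5 and 29.5 after EDA-A2. The control ratio was 2.98, and the log2 fold change was 0.14 (SE 0.43, adjusted p = 0.931, edgeR). Isg15 itself had 310.1 and 143 normalized counts in the controls, a ratio of 2.16, and 183 and 212 after EDA-A2. Again the treated libraries were the inner pair (log2 fold change -0.19, SE 0.25, adjusted p = 0.800, edgeR). Mx2, a gene of the MX family, had 60.8 and 33.3 normalized counts in the controls and 42.1 and 40.3 after EDA-A2 (log2 fold change -0.19, SE 0.31, adjusted p = 0.861, edgeR). For these 4 genes and Ifit3b the SE was 0.25 to 0.43, against a median of 0.10 over all genes, so a change of the size called in Ifit1 was not detectable with this spread.

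**Figure D2:**
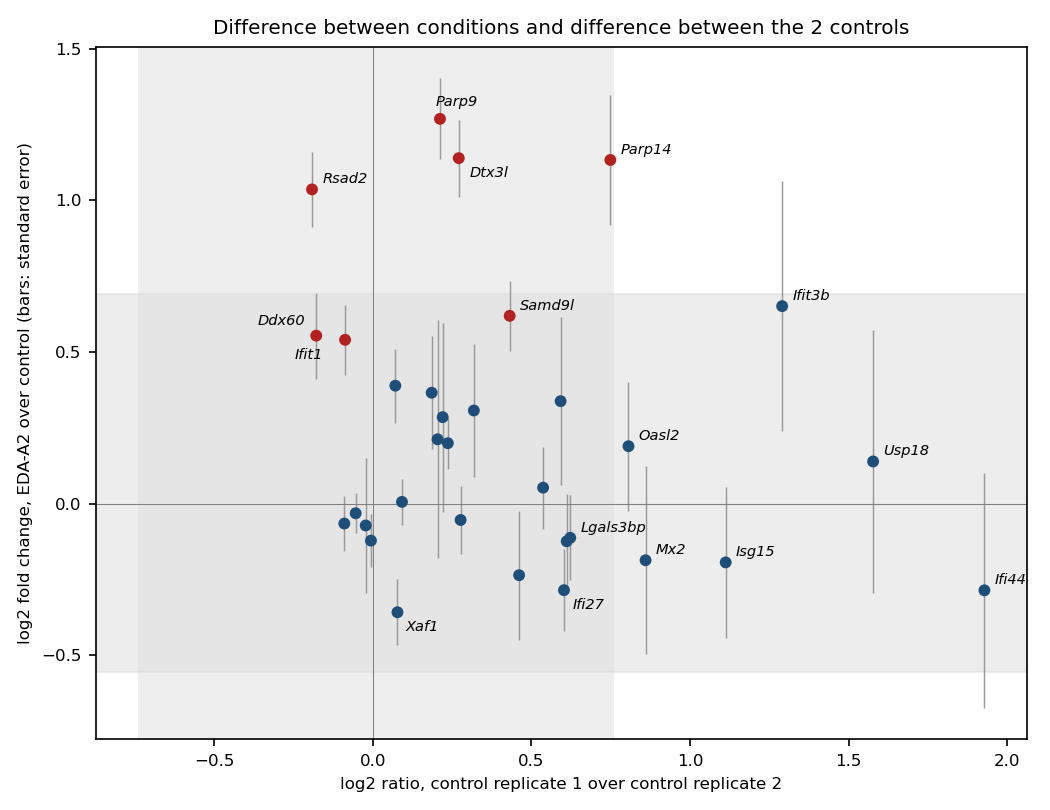
Log2 fold change of EDA-A2 over control (y axis, bars are the standard error) against the log2 ratio of the 2 controls (x axis) for the 32 tested members, with the called genes in red; the grey bands hold the middle 95% of all genes tested on each axis. Most points lie to the right of 0, where control replicate 1 is the higher, and Isg15, Usp18, Ifit3b, Ifi44, Mx2 and Oasl2 lie beyond the vertical band.

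Taking all tested members, both EDA-A2 libraries were above both controls in 11 (34.4%), a pattern found in 22.8% of all genes tested. The 4 that showed it without being called were Herc6, Ifitm3, Trim21 and Ifi35. Both treated libraries were below both controls in 3 (9.38%), Ifit2, Ifitm2 and Xaf1, against 22.2% of all genes. The 10 in which both lay between the controls were Isg15, Usp18, Oasl2, Mx2, Helz2, Adar, Bst2, Ifi27, Ifi44 and Lgals3bp. Of the 25 members tested and not called, 21 had the higher value in control replicate 1, and their median log2 fold change was -0.03.

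The ISG15 system holds, besides Isg15 and Usp18, the ligases Trim25 and Herc6. Trim25, which also modifies the RNA sensor RIG-I, was steady at 1865 to 2027 normalized counts in the 4 libraries (log2 fold change 0.01, SE 0.08). Herc6, the main ISG15 ligase of the mouse, had 100.97 and 88.7 normalized counts in the controls and 117 and 128 after EDA-A2, a separate but small difference (log2 fold change 0.37, SE 0.19, adjusted p = 0.383, edgeR).

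The highest levels per length belonged to the membrane proteins Ifitm2, Ifitm3 and Bst2. Over the 4 libraries the level per length was 128 for Ifitm2, 86.7 for Ifitm3, 18.8 for Bst2 and 2.16 for Ifitm1. Ifitm2, which blocks entry in late endosomes, had 3741 and 3884 normalized counts in the controls and 3717 and 3740.4 after EDA-A2 (log2 fold change -0.03, SE 0.07, adjusted p = 0.890, edgeR), and the sign turned to 0.02 when total counts replaced TMM. Ifitm3, the best known restrictor of influenza virus entry, had 3309 and 2809 against 3329.7 and 3693, so the nearest libraries of the groups almost met (log2 fold change 0.20, SE 0.08, adjusted p = 0.252, edgeR). Bst2, or tetherin, which holds budding virions on the cell surface, had 787 and 543 normalized counts in the controls and 659.7 and 718 after EDA-A2. The treated pair again lay inside the controls (log2 fold change 0.05, SE 0.13, adjusted p = 0.915, edgeR). Of the transcript windows of Ifitm3, 58.0% are shared with Gm57251 on the opposite strand, and of those of Ifitm2 32.9% are shared with overlapping models, which leaves their levels uncertain without the strand option. Sharing with other gene models also touched 21.2% of the windows of Isg15, 17.2% of those of Adar and 14.5% of those of Ifi35, and 20.5% of those of Herc6, where 17.1% are shared with Gm45193 on the same strand.

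**Figure D3:**
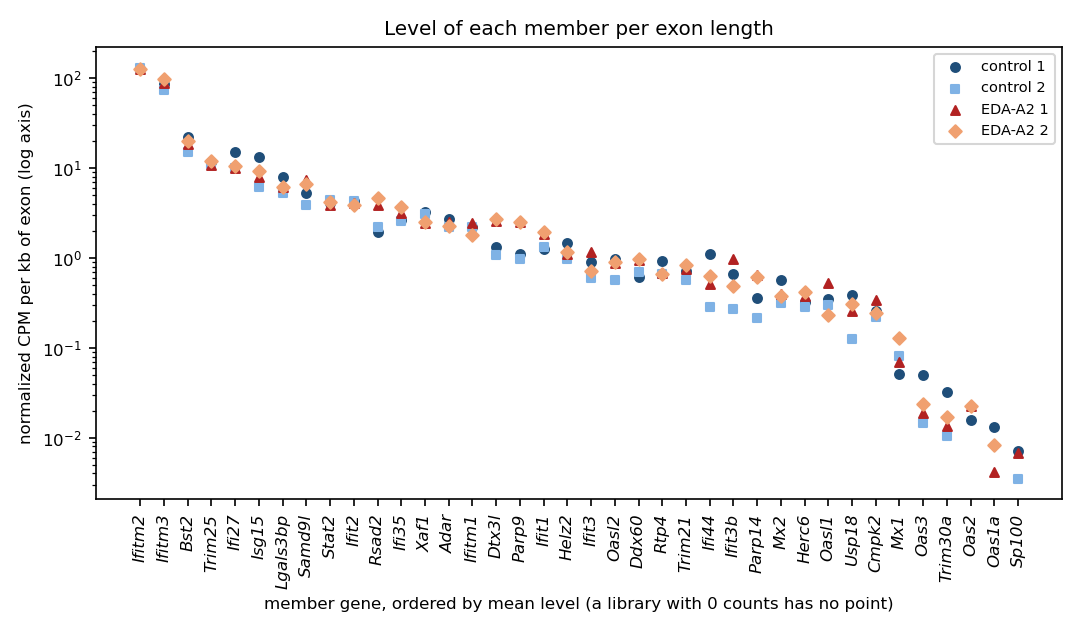
Level of all 38 members in each library, as normalized CPM per kb of exon on a log axis, ordered by the mean. Ifitm2 and Ifitm3 stand at the top at 128 and 86.7, and the 6 genes not tested form the low end.

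The RNA sensors Oas1a, Oas2 and Oas3 and the MX family gene Mx1 were near the limit of these libraries. The raw counts of Oas1a were 3, 0, 1 and 2, in the order of control replicates 1 and 2 and then EDA-A2 replicates 1 and 2. Oas2 had 2, 0, 3 and 3, Oas3 had 10, 3, 4 and 5, and Mx1 had 5, 8, 7 and 13. No fold is given for them, nor for the ubiquitin ligase Trim30a at 9, 3, 4 and 5 counts and the nuclear body protein Sp100 at 2, 1, 2 and 0, because none of the 6 passed the filter. In the same family, Oasl2 had 185 and 106 normalized counts in the controls and 164 and 168 after EDA-A2 (log2 fold change 0.19, SE 0.21), and Oasl1 ranged from 17.7 to 40.2 (log2 fold change 0.21, SE 0.39). A response of the canonical OAS genes was therefore not measurable at this depth, which is different from an absence of one.

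Among the other members, Xaf1 and Ifi35 came closest to the threshold, in opposite directions. Xaf1, a partner of the apoptosis inhibitor XIAP, had 454 and 431 normalized counts in the controls and 341 and 349 after EDA-A2. The groups did not overlap (log2 fold change -0.36, SE 0.11, adjusted p = 0.0817, edgeR). Ifi35, a leucine zipper protein, had 302 and 287 against 356 and 416 (log2 fold change 0.39, SE 0.12, adjusted p = 0.0936, edgeR). Ifi27, a small mitochondrial protein and a common marker of interferon exposure, had 1991 and 1311 normalized counts in the controls and 1319 and 1388 after EDA-A2, so that control replicate 1 stood apart from the other 3 libraries (log2 fold change -0.29, SE 0.13, adjusted p = 0.326, edgeR). Lgals3bp, a secreted glycoprotein, showed a like order, with 1249.8 and 812 against 955 and 950.3, as did the helicase Helz2 with 522 and 342 against 386 and 406. The log2 fold changes of these 2 genes were -0.11 (SE 0.14) and -0.12 (SE 0.15). The remaining members were the RNA editing enzyme Adar, the antibody receptor Trim21, the chaperone Rtp4, the membrane protein Ifitm1 and the transcription factor Stat2, with log2 fold changes from -0.24 in Rtp4 to 0.31 in Trim21 and adjusted p-values from 0.579 to 0.931 (edgeR).

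The calls of edgeR over all genes, and not those of the members alone, were lost when either control was left out. The fitted changes of the members are given in the next paragraph, and why the calls were lost was not tested. With control replicate 1 left out, edgeR called 0 members and 0 of 15704 genes (0%), with a smallest adjusted p over all genes of 0.115, and with control replicate 2 left out it called 0 members and 0 of 15716 genes (0%), with a smallest adjusted p of 0.0842. These fits hold 3 libraries and assume that the lone sample varies like the other group. At an unadjusted p under 0.05, 15 of 33 members (45.5%) were higher without control replicate 1, against 6.76% of all genes, and 7 of 34 (20.6%) were higher without control replicate 2, against 7.92% of all genes. Without EDA-A2 replicate 1, 6 members were called against 1.52% of all genes, the loss being Ddx60, and without EDA-A2 replicate 2, 5 were called against 1.32% of all genes, the losses being Ddx60 and Ifit1.

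The estimates of some members moved more than those of others when a library was left out. Across the 4 fits with a library left out, the log2 fold change of Parp9 was 1.17 to 1.38, that of Dtx3l 1.01 to 1.28 and that of Rsad2 0.90 to 1.16. Ifit1 lay between 0.50 and 0.59 and Ddx60 between 0.47 and 0.65, while Samd9l ranged from 0.42 to 0.85 and Parp14 from 0.80 to 1.56. The 7 called genes were positive in each of these fits. This follows from both EDA-A2 libraries lying above both controls in each gene, and is no separate result. Isg15 went from -0.65 without control replicate 2 to 0.47 without control replicate 1, Ifi44 from -0.95 to 0.98, Usp18 from -0.46 to 1.15 and Mx2 from -0.56 to 0.31. In each of these genes both EDA-A2 libraries lay between the controls, so the sign had to turn with the control left out. Ifit3b, with a log2 fold change of 0.65 in all 4 libraries, ranged from 0.07 without EDA-A2 replicate 1 to 1.45 without control replicate 1. The median log2 fold change of the tested members was 0.40 without control replicate 1 and -0.01 without control replicate 2, and 28 of 33 and 16 of 34 members were positive.

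**Figure D4:**
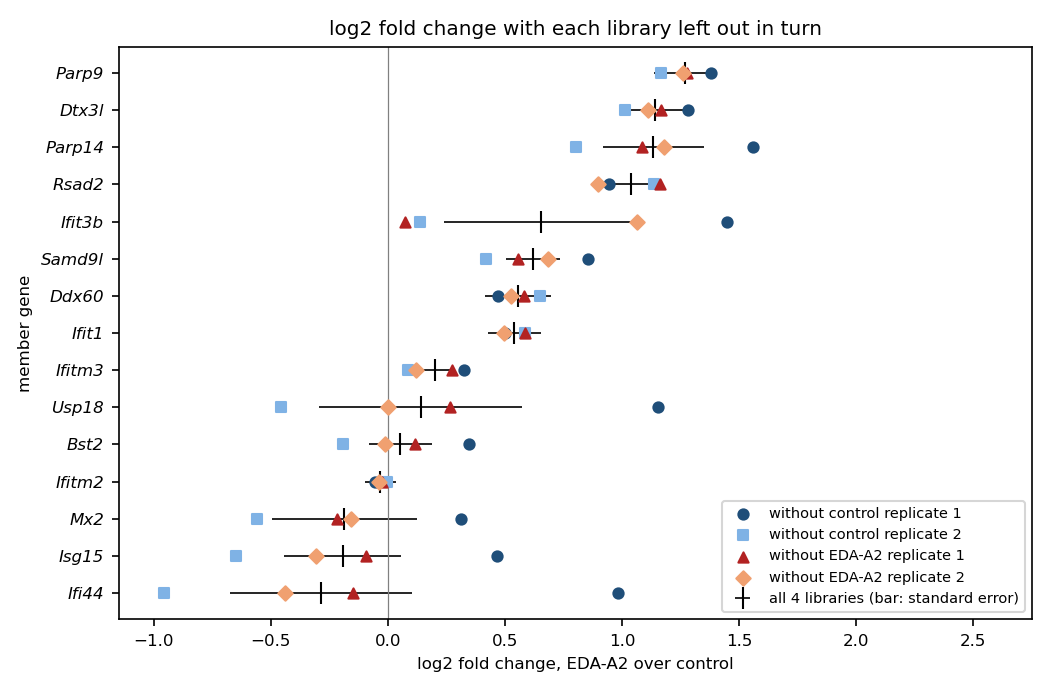
Log2 fold change of EDA-A2 over control for 15 members, with all 4 libraries (black, bar is the standard error) and with 1 library left out at a time (coloured points). The called genes stay to the right of 0, whereas Isg15, Ifi44, Usp18 and Mx2 change sign with the control that is left out. Both patterns follow from the order of the libraries in each gene.

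The ISRE was found in called and in uncalled members. In the shorter window it was present in 3 of the 7 called (42.9%), in 9 of the 25 tested and not called (36%) and in 4 of the 6 not tested. In the wider window it was present in 5 of the 7 called (71.4%) and in 13 of the 25 tested and not called (52%). Isg15 holds 3 overlapping matches between 50 and 29 bases before its start, and Usp18 holds 2. Neither was called, but a change of the size called in Ifit1 was not detectable in them. Samd9l was called and had no match in either window around its canonical start at chr6:3399590. Other starts of this gene, which extends to 3405056, were not searched. The 2 other motifs searched were the gamma-activated sequence (GAS), TTCNNNGAA, in 5 members (13.2%; 8.85% of protein-coding genes), and the κB consensus bound by NF-κB, in 4 members (10.5%; 8.96%). Neither was present near the start of a called member, and 7 genes are too few to compare with shares of this size. A match is a run of letters and says nothing about binding.

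**Figure D5:**
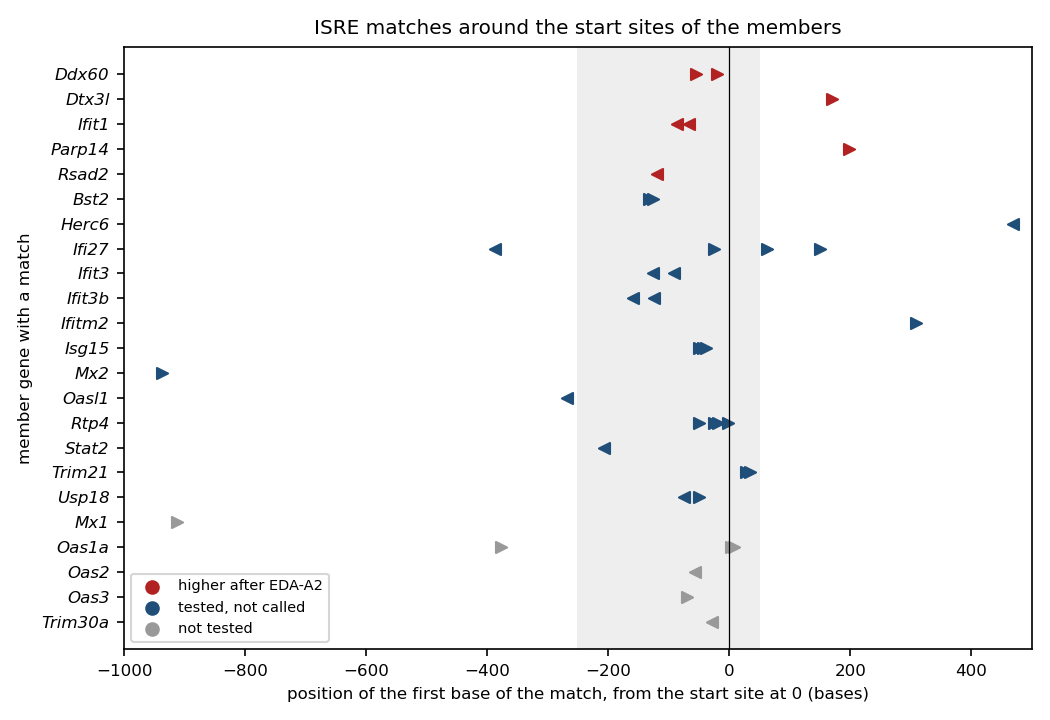
Positions of ISRE matches from 1000 bases before to 500 after the start site (x axis, bases) for the 23 members that hold one, coloured by call, with the direction of each triangle giving the strand relative to the gene. The shaded part is the window of 250 bases before to 50 after the start, and Dtx3l and Parp14 have their match beyond it, at 170 and 197 bases after the start.

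The pathway above these genes was read from a list of 42 ligands, receptors, transducers and feedback inhibitors, of which 21 were tested, 6 were higher and 0 were lower by edgeR (all genes tested 2.45% and 2.13%). All 21 interferon ligands fell below the filter, with 17 at 0 in every library and a highest count of 2, and Ifnb1 was at 0 throughout. Among the receptors, Ifnar1 had 1276 and 1230.2 normalized counts in the controls and 1496 and 1574 after EDA-A2 (log2 fold change 0.29, SE 0.08, adjusted p = 0.0411, edgeR). Its partner Ifnar2 had 656 and 669.6 against 779 and 703 (log2 fold change 0.16, SE 0.09, adjusted p = 0.460, edgeR). The subunits of the interferon gamma receptor were also higher, with log2 fold changes of 0.72 for Ifngr1 (adjusted p = 5.73e-05) and 0.50 for Ifngr2 (adjusted p = 0.00251, both edgeR).

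Among the transducers, the transcription factor Irf1 had 617 and 656 normalized counts in the controls and 1363 and 1293 after EDA-A2 (log2 fold change 1.06, SE 0.08, adjusted p = 2.84e-06, edgeR). The kinases Tyk2 and Jak2 were higher by 0.78 (adjusted p = 0.000121) and 0.41 (adjusted p = 0.00978, both edgeR). Irf9 and Stat2 were not called. Irf9 had 429.6 and 244 normalized counts in the controls and 264 and 277 after EDA-A2 (log2 fold change -0.32, SE 0.19, adjusted p = 0.496, edgeR), and Stat2 had 764 and 814 against 724 and 783 (log2 fold change -0.07, SE 0.09, adjusted p = 0.817, edgeR). Irf9 thus had the same order of libraries as Isg15, with the treated pair between the controls and control replicate 1 on top. None of 6 feedback inhibitors was called.

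Markers of other cell types were read beside these results. The summed normalized counts of 8 macrophage markers were 309 and 274 in the controls and 439 and 330.2 after EDA-A2. Of the 8, 4 were under 10 counts in each library, and 0 of the 4 tested were called. All 4 tested had positive log2 fold changes, 0.94 in Cd14, 0.92 in Itgam, 0.32 in Mrc1 and 0.30 in Cd68. Plasmacytoid dendritic cells, a main source of type I interferon, had Siglech, Irf8 and Ccr9 at 0 in every library and Ly6d at no more than 1 count, while their marker Bst2 is a member and has its values above. T cell markers summed to 38.2 to 48.4 and endothelial markers to 29.5 to 36.3 normalized counts, with Cd2 and Emcn at 0. Fibroblast markers summed to 49614 and 51560.2 in the controls and 47320.5 and 48012 after EDA-A2, with Thy1 at 0 and none called. Myoblast markers summed to 8892 and 7615 against 7114 and 6767, and 1 of the 4, Cdh15, was called lower (log2 fold change -0.47, adjusted p = 0.00318, edgeR). Of the 2 controls, replicate 1 held the higher sum of macrophage, myoblast and myotube markers and the lower sum of fibroblast and endothelial markers. The T cell sums were nearly equal, at 48.4 and 47.4 in control replicates 1 and 2. Most of the fibroblast sum was Col3a1, at 39997 and 46065.5 in control replicates 1 and 2. Col1a1 alone among the fibroblast markers went the other way, at 9277 and 5088. Among the macrophage markers, Mrc1 was higher in control replicate 1 than in control replicate 2 (217 against 169 normalized counts). Cd68 (55.6 against 63.5) and Cd14 (11.3 against 17.1) were lower, and Itgam was nearly equal (18.5 against 18.2). The part of these cells in the spread of the members was not tested.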

How the data were processed

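Poly(A) RNA libraries of 2 control and 2 EDA-A2-treated myotube samples were analysed. The authors deposited raw counts of read pairs per Ensembl gene. Per the submitters' processing notes and the paper's methods, reads were checked with FastQC 0.11.9 and MultiQC 1.12, trimmed with Trim Galore 0.6.5, mapped to GRCm39 with STAR 2.7.3a and counted with HTSeq 0.11.1. The annotation release and the strand option are not given in the sources used here. HTSeq's 5 summary lines were left out: 6.68 to 7.40% of pairs were assigned to no feature, 0.946 to 0.986% were ambiguous and 4.56 to 4.76% did not map uniquely. GENCODE M39 matched 52610 of 53647 genes.

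The tests were run with edgeR 4.0.16 under R 4.3.3 (TMM; filterByExpr, minimum count 10, minimum total 15; glmQLFit and glmQLFTest; condition as the only term), with Benjamini-Hochberg adjustment over all genes tested and a threshold of 0.05. An exact permutation test of 2 against 2 libraries cannot go below p = 0.333, so none was run. Ratios between libraries of a group used normalized counts plus 0.5. Level per length used the union of exons. Start sites are those of canonical transcripts. The edgeR step was run on simulated counts with the same dispersion for every gene, a setting that does not cover members whose controls lay far apart. The members, the pathway and marker lists and the tests were chosen with earlier results of these data known. Values in full are given for called members, for the 5 with the widest control ratio at a mean of at least 10 counts, for the 3 with the highest level per length and for members whose call changed when a library was left out; of the pathway and of other interferon-stimulated genes, up to 5 called genes with the smallest p in each list are named, beside Irf9, Ifnar1, Ifnar2 and Ifnb1. Alternatives were other scalings, other filters, DESeq2 1.42.0, a replicate block and leaving out each library. The values of 1 pathway gene are not reported here.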

Additional observations from a re-analysis of the deposited data

How the results depend on the processing

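The 7 members called higher were also called with DESeq2 size factors, upper quartile factors, total counts and at least 10 counts in every library. With no filter beyond 1 count in total, 2 members (Parp9 and Dtx3l), 1 other interferon-stimulated gene and 2 pathway genes were higher, out of 25545 genes tested of which 64 were higher and 22 lower, and 8 members were at least 2-fold apart between the controls. Leaving out each library in turn gave 0 to 6 members, 0 to 10 other interferon-stimulated genes and 0 to 5 pathway genes called higher, and a member median of -0.012 to 0.40. The log2 fold change ranged from -0.95 to 0.98 for Ifi44, -0.46 to 1.15 for Usp18, -0.65 to 0.47 for Isg15, -0.56 to 0.31 for Mx2 and -0.19 to 0.35 for Bst2, and Ifitm2 turned to 0.023 with total counts. The causes were not tested. Total counts moved the median of all genes to 0.05 and the split to 485 higher and 194 lower, from 371 and 323. The sources do not say whether libraries with the same replicate number share pups or cultures. The deviations of control replicate 1 and EDA-A2 replicate 1 from their group means correlated at 0.06 over the genes tested, which does not decide it. With a replicate block the called genes rose to 537 higher and 529 lower. The same 7 members were higher and 1, Xaf1, was lower (adjusted p = 0.0499, edgeR).

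With 2 libraries per group, the SE of a member's log2 fold change had a median of 0.14, and depth limits the 6 members that were not tested.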

Other observations

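Other interferon-stimulated genes, among them antigen presentation genes, guanylate-binding proteins, RNA sensors and chemokines, were read from a list of 47 genes that holds none of the 38 effectors. Of these, 42 were tested, 14 were higher after EDA-A2 and 0 were lower in the edgeR fit (Benjamini-Hochberg adjusted p under 0.05; all genes tested 2.45% and 2.13%), and their median log2 fold change was 0.24. The chemokine Ccl5 had 39.2 and 34.3 normalized counts in the controls and 109 and 122 after EDA-A2 (log2 fold change 1.65, SE 0.23, adjusted p = 0.000529, edgeR). Cxcl10, the chemokine that recruits T cells, had 65.9 and 40.3 against 179 and 144 (log2 fold change 1.61, SE 0.23, adjusted p = 0.000724, edgeR). The groups of both chemokines were well apart. Tapbp, or tapasin, which loads peptides on MHC class I, was higher by 0.61 (adjusted p = 0.000747), and the guanylate-binding proteins Gbp7 and Gbp2 by 0.75 (adjusted p = 0.00232) and 1.11 (adjusted p = 0.00241, all edgeR). In 34 of the 42 the value of control replicate 1 was above that of control replicate 2, against 49.9% of all genes tested.

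Near the start sites of the 346 protein-coding genes called higher, the κB consensus was present in 65 (18.8%) and the ISRE in 20 (5.78%), against 10.01% and 3.41% of the protein-coding genes tested. The κB consensus was present in 0 of the 7 effectors called higher and the ISRE in 3. A set of 7 genes is too small to set its κB share apart from 10.01%.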
